A study of Mus musculus with 8 samples.

Results

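The constant genes of the immunoglobulins and Jchain were examined in RNA-Seq data of flow-sorted blood monocytes (MCs) of control and diabetic mice. The genes were taken by symbol from the deposited expression values and are Ighm and Ighd (the naive isotypes), Igha, Ighg1, Ighg2b, Ighg2c and Ighg3 (the switched isotypes), Igkc and Jchain. All 9 symbols asked for were found among the 16486 genes. They were chosen by their measured differences between the MC subsets and between T1DM and control Ly6Clow MCs, so those differences, and whether a member was called in a fit across all genes, are given below as a description.

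An antibody is built of heavy and light chains, each with a variable part that binds antigen and a constant part. The constant part of the heavy chain sets the isotype. A naive B cell makes IgM and IgD from a single long transcript, by splicing the same variable exon to Ighm or to Ighd. In class switching, DNA between Ighm and a downstream constant gene is cut out, and the cell then makes IgG or IgA with the same variable part. Igkc encodes the constant part of the kappa light chain, which most mouse antibodies carry. Jchain encodes the joining chain that links IgM and IgA units into polymers and is made in quantity by antibody-secreting cells. MCs are not known to rearrange immunoglobulin genes, and they meet antibody through Fc receptors on their surface.

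The MCs were sorted as CD11b+Ly6G- cells with high (Ly6Chigh) or low (Ly6Clow) surface Ly6C, and the gate as described names no B cell marker. Control (CT) mice were C57/BL6 and untreated. T1DM mice were C57/BL6 injected at 8 weeks of age into the peritoneum with streptozotocin, a toxin that kills insulin-producing beta cells, daily for 5 days (50 mg/kg per day). The T2DM mice carried the db/db genotype, homozygous for a leptin receptor mutation that makes them obese and diabetic, and their background strain is not given in the sources used here. All mice were male, ate normal chow and were bled at 20 to 22 weeks. The CT groups have 2 libraries per subset, and T1DM and T2DM have 1 library per subset, 8 in all. RNA of 5 mice was pooled per group before duplicate sequencing, which means that the spread between CT replicates, and p-values built on it, may be technical only. The sequencer was a NextSeq 500 for CT and a HiSeq 4000 for T1DM and T2DM, so that an effect of diabetes and one of the sequencer cannot be told apart.

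All values are the authors' normalized log2 expression values, without read counts, so that the depth behind a value is unknown. They run from -4.05 to 15.64, and the linear values (2 to the power of each) add up to 838696 in the lowest and 1090019 in the highest library. The CT and the diabetic libraries have nearly the same mean for most genes. Over genes, the difference of the CT from the diabetic mean had an SD of 0.272, against 0.743 for T1DM minus T2DM. A shift shared by both diabetic models and both subsets would therefore be small in these values, and differences from CT of one sign in some diabetic libraries tend to come with the other sign in the rest. The lowest values differ between the sequencers as well. Both CT Ly6Chigh libraries shared one value, and both diabetic Ly6Chigh libraries another, in 85 genes, with medians of -2.05 and -2.57, so that low values in Ly6Chigh MCs are not on one scale across the sequencers. For the members, the mean of the 4 diabetic libraries differed from that of the 4 CT libraries by between -0.02 for Ighg3 and 0.98 for Ighg1. For this reason, differences within a mouse group and between T1DM and T2DM, which share a sequencer, are given beside those from CT.

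In the GENCODE M21 annotation of GRCm38 (mm10), the 7 heavy chain genes lie on the minus strand of chromosome 12 in the order in which switching can reach them. Ighm is at chr12:113418558-113422730 and Ighd at chr12:113406604-113416324. The IgG genes follow with Ighg3 at chr12:113356224-113361232, Ighg1 at chr12:113325240-113330523, Ighg2b at chr12:113302965-113307933 and Ighg2c at chr12:113285325-113288932. Igha is the last, at chr12:113254830-113260236. Igkc lies on the plus strand at chr6:70726435-70726966 and Jchain on the minus strand at chr5:88519809-88527891.

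The 4 IgG genes are close copies of each other, and reads had to be assigned among them. To show how alike they are, the first 60 bases of each constant region transcript (the start of the first constant exon, 5′ to 3′ on the minus strand, GENCODE M21) are given, with capitals at the 22 positions where the 4 genes do not all have the same base.
Ighg3, chr12:113361173-113361232: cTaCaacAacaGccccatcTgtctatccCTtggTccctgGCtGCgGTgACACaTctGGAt
Ighg1, chr12:113330464-113330523: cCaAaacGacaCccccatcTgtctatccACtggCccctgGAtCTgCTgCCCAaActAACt
Ighg2b, chr12:113307874-113307933: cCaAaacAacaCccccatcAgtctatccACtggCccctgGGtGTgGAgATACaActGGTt
Ighg2c, chr12:113288873-113288932: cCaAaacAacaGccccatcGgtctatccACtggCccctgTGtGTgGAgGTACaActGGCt
Ighg2b and Ighg2c were the most alike, with the same base at 55 of the 60 positions. Ighg3 and Ighg1 were the least alike, with 42 of 60.

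Kallisto, the program the authors used, assigns reads by 31-base stretches that they share with annotated transcripts. Of the 31-base stretches of the Ighg2c transcripts, 15.0% also occurred in a transcript of another gene, nearly all of them in Ighg2b. The share was 9.29% for Ighg2b, 3.63% for Ighg3 and 1.72% for Ighg1. For Ighd it was 0.107%, and Ighm, Igha, Igkc and Jchain shared 0 such stretches with another gene. Values of Ighg2b and Ighg2c are therefore less certain than the others, since reads could have been split between them. Every heavy chain gene has a transcript for the membrane form and one for the secreted form, and the deposited values do not separate them. Levels are compared below between libraries, because the study's methods name both gene counts and TPM values (scaled by transcript length) and do not say which of them the deposited values come from. Where the gene with the highest mean value of a list is named, this ranks the deposited values only.

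The libraries carried the markers of MCs. Lyz2, the lysozyme of myeloid cells, was at 15.00 and 15.02 in the CT Ly6Chigh libraries and at 12.55 and 12.52 in the CT Ly6Clow libraries. Csf1r, the receptor for the growth factor of MCs, was at 10.41 and 10.65 in CT Ly6Chigh and at 9.70 and 9.75 in CT Ly6Clow MCs. Ly6c2, which encodes the antigen used in the sort, was at 8.56 to 8.72 in the 4 Ly6Chigh libraries and at 2.69 to 4.07 in the 4 Ly6Clow libraries. The sorted subsets were thus clearly apart in the gene that defines them.

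The Ly6Clow libraries also carried markers of B cells. Cd79a, a signalling chain of the B cell receptor, was at 8.56 and 8.59 in CT, against 8.66 in T1DM and 9.08 in T2DM Ly6Clow MCs. In Ly6Chigh MCs it was at 3.90 and 3.83 in CT, with 4.17 in T1DM and 2.68 in T2DM. The gene thus had values in each Ly6Chigh library too, at a far lower level.

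All 12 genes of a list of B cell receptor and surface genes were measured, and none of the defining genes was near the bottom of the values in Ly6Clow MCs. As the sum of the linear values, the list reached 200.5 and 222.4 in CT, against 258.8 in T1DM and 237.0 in T2DM Ly6Chigh MCs. In Ly6Clow MCs the sum was 2244.6 and 2188.5 in CT, with 2283.6 in T1DM and 2848.4 in T2DM. Cd37, a tetraspanin of mature B cells that other leukocytes also express, had the highest mean value of the list. Without Cd37, the sum over the other 11 genes was 87.0 and 97.3 in CT, against 141.3 in T1DM and 59.3 in T2DM Ly6Chigh MCs, so that T2DM then lay below both CT libraries. In Ly6Clow MCs it was 1820.8 and 1782.1 in CT, with 1892.2 in T1DM and 2354.0 in T2DM. In the pooled test of the subsets described below, all 12 genes were called lower in Ly6Chigh MCs, against 6.76% of all genes. In bulk libraries, fewer cells of a type and less RNA per cell cannot be told apart. The part that such cells have in the values of the immunoglobulin genes was not tested.

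Ighm, the heavy chain of IgM, was at 11.19 and 11.22 in the CT Ly6Clow libraries, 11.00 in T1DM and 11.40 in T2DM Ly6Clow MCs. In Ly6Chigh MCs, Ighm was at 8.14 and 8.12 in CT, against 8.57 in T1DM and 7.63 in T2DM. The Ly6Clow libraries thus lay within 0.41 of each other, although the diabetic ones fell outside the narrow span of the CT libraries, and all Ly6Chigh libraries were far below them. Ighd, the heavy chain of IgD, was at 7.19 and 7.25 in CT, with 7.61 in T1DM and 7.80 in T2DM Ly6Clow MCs. In Ly6Chigh MCs it was at 3.20 and 2.82 in CT, against 4.13 in T1DM and 2.19 in T2DM. Both naive isotypes were highest in T2DM Ly6Clow and lowest in T2DM Ly6Chigh MCs.

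Igkc followed the naive isotypes between the subsets and stood higher in T1DM. Its values were 10.32 and 10.30 in CT, with 10.99 in T1DM and 10.41 in T2DM Ly6Clow MCs. In Ly6Chigh MCs they were 6.65 and 6.49 in CT, against 7.43 in T1DM and 5.82 in T2DM. The T1DM library was the highest of its subset in both subsets.

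Jchain was at 5.62 and 5.73 in CT, with 7.28 in T1DM and 5.75 in T2DM Ly6Clow MCs. The T2DM library was 0.08 above the CT mean, less than the 0.11 between the CT libraries, so that only T1DM stood apart. In Ly6Chigh MCs, Jchain was at 3.44 and 3.22 in CT, against 3.93 in T1DM and 2.10 in T2DM.

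Igha, the heavy chain of the IgA made mainly at mucosal surfaces, was at 8.06 and 8.25 in CT, with 10.21 in T1DM and 8.71 in T2DM Ly6Clow MCs. In Ly6Chigh MCs it was at 6.48 and 6.41 in CT, against 7.14 in T1DM and 4.80 in T2DM. Igha was thus highest in T1DM in both subsets, and its lowest value was that of T2DM Ly6Chigh MCs.

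Among the IgG genes, Ighg1 was at 2.67 and 2.68 in CT, with 4.69 in T1DM and 3.05 in T2DM Ly6Clow MCs, and at 0.37 and -1.36 in CT, against 3.18 in T1DM and -2.64 in T2DM Ly6Chigh MCs. The CT Ly6Chigh libraries differed by 1.73, the largest replicate difference of the 9 genes, where the median difference was 0.218 in Ly6Chigh and 0.11 in Ly6Clow MCs. Ighg2b was at 4.65 and 4.32 in CT, with 6.47 in T1DM and 4.12 in T2DM Ly6Clow MCs. Its Ly6Chigh values were 2.00 and 1.41 in CT, against 4.10 in T1DM and -0.07 in T2DM.

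Ighg2c, the form of IgG2 that C57/BL6 mice carry in place of Ighg2a, was at 2.76 and 3.08 in CT, with 5.12 in T1DM and 2.19 in T2DM Ly6Clow MCs. Its Ly6Chigh values were 2.24 and 2.09 in CT, against 4.52 in T1DM and -1.51 in T2DM. Here T1DM Ly6Chigh MCs stood above the Ly6Clow MCs of both CT and T2DM mice. Ighg2a was not among the symbols of the values, and whether the T2DM mice carry Ighg2a or Ighg2c is not given in the sources used here.

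The pattern of Ighg3 was different. It was at 4.23 and 4.53 in CT, with 5.82 in T1DM and 5.80 in T2DM Ly6Clow MCs. In Ly6Chigh MCs it was at 0.45 and -0.0007 in CT, against -1.27 in T1DM and -1.24 in T2DM. Both diabetic models thus had the same order, above CT in Ly6Clow MCs and below CT in Ly6Chigh MCs, and T1DM minus T2DM was 0.02 and -0.03 in these subsets. Since the mean of the diabetic libraries differed from the CT mean by only -0.02 for this gene, the opposite signs in the subsets are not separate observations.

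Ordered by level, T1DM Ly6Clow MCs came first in 7 of the 9 genes and T2DM Ly6Clow MCs in the other 2, Ighm and Ighd. T2DM Ly6Chigh MCs came last in 8 genes, and T1DM Ly6Chigh MCs in Ighg3. For Ighg3 the first 2 and the last 2 groups differed by less than the CT replicates did.

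**Figure D1:**
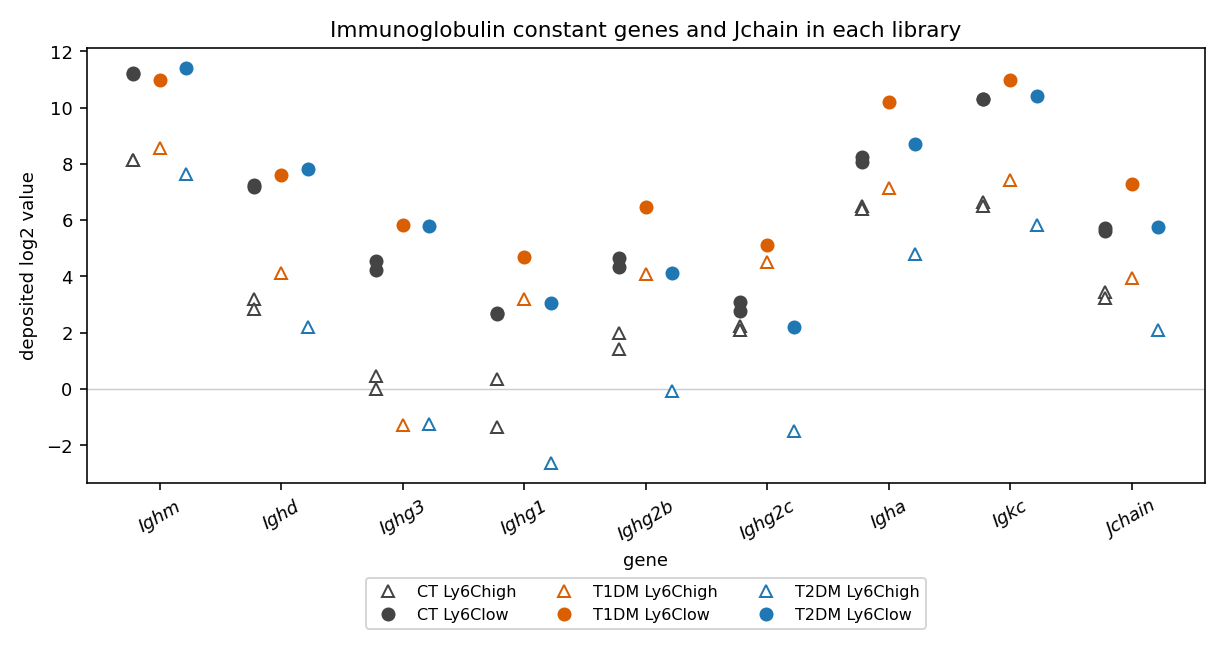
Deposited log2 value (vertical axis) of each gene (horizontal axis, heavy chain genes in their order along the chromosome) in each of the 8 libraries, with filled circles for Ly6Clow and open triangles for Ly6Chigh MCs and colours for the mouse groups. The circles lie above the triangles of the same mouse group for every gene, and for Ighg1 and Ighg2c the T1DM triangle lies above the CT circles.

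The question of how the subsets differ could be asked in each mouse group. All 9 genes were lower in Ly6Chigh than in Ly6Clow MCs in CT, T1DM and T2DM mice. In CT MCs the difference was smallest for Ighg2c (-0.75), Igha (-1.71) and Jchain (-2.34). It was -2.78 for Ighg2b, -3.08 for Ighm, -3.17 for Ighg1 and -3.74 for Igkc. The largest were those of Ighg3 (-4.15) and Ighd (-4.21), an 18.5-fold lower level of Ighd. The 4 Ly6Clow libraries lay above the 4 Ly6Chigh libraries without overlap for 7 of the 9 genes, against 16.3% of all genes, and overlapped for Ighg1 and Ighg2c. Since the genes were chosen by this contrast, nothing is read from that count or those that follow.

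By limma with Benjamini-Hochberg adjustment over all genes (adjusted p-value under 0.01 and absolute log2FC above 1, the criteria of the study), 581 genes were called between CT Ly6Chigh and CT Ly6Clow MCs. Of these, 235 were lower in Ly6Chigh MCs, or 1.43% of all genes. The 9 genes had 6 calls, all lower in Ly6Chigh MCs, and Ighg1, Ighg2b and Ighg2c were not called. No gene at all was called when any 1 of the 4 CT libraries was left out, without the trend of the variance on expression, or with the replicate number as a block in limma. With all 4 libraries and the trend, 37.7% of all genes had an unadjusted p-value under 0.05. Over the fits without calls, the difference of Ighm ran from -3.09 to -3.07, that of Igkc from -3.82 to -3.66 and that of Ighg1 from -4.04 to -2.31. In a fit of all 8 libraries with a term for the mouse group (the pooled test of the subsets), 2001 genes were called, 1115 of them lower in Ly6Chigh MCs (6.76%). Here 8 of the 9 genes were called, all lower in Ly6Chigh MCs, and Ighg2c was not. Leaving out a CT library or a diabetic mouse group left 7 or 8 of the 9 called. Where 7 were left, Ighg1 had lost its call, and it also lost it without the trend. The difference of Ighg1 was -3.39 with all 8 libraries, with or without the trend. It was between -3.43 and -2.62 in the other fits that lost the call.

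Within the diabetic models the subset difference has 1 library on each side and no test. In T1DM it was -0.60 for Ighg2c, -1.51 for Ighg1, -2.38 for Ighg2b, -2.43 for Ighm and -3.07 for Igha, and it was -7.09 for Ighg3. Jchain had -3.35, Ighd -3.48 and Igkc -3.56. In these mice 8 of the 9 genes were below -1, as were 16.8% of all genes. In T2DM mice the difference ran from -3.65 for Jchain and -3.70 for Ighg2c to -5.69 for Ighg1 and -7.04 for Ighg3, so that all 9 genes were below -1, against 17.8% of all genes. The subset difference was larger in T2DM than in CT mice for every one of the 9 genes, and larger in T2DM than in T1DM mice for all but Ighg3. This order between mouse groups was not tested. The Ly6Chigh values were low for Ighg1 in T2DM (-2.64) and for Ighg3 in T1DM (-1.27) and T2DM (-1.24). The size of these differences is therefore poorly measured.

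Set beside the B cell receptor and surface genes, the constant genes differed less between the subsets. The median difference of the 12 B cell genes was -4.21 in CT mice, -3.83 in T1DM and -5.19 in T2DM. The median of the 9 genes was -3.08 in CT mice, -3.07 in T1DM and -4.19 in T2DM, and that of all genes was -0.09, -0.04 and -0.03. Ighm, Igkc, Igha, Jchain, Ighg2b and Ighg2c were above the B cell median in each mouse group. Ighd and Ighg1 were below it in T2DM mice only, and Ighg3 in both diabetic models.

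**Figure D2:**
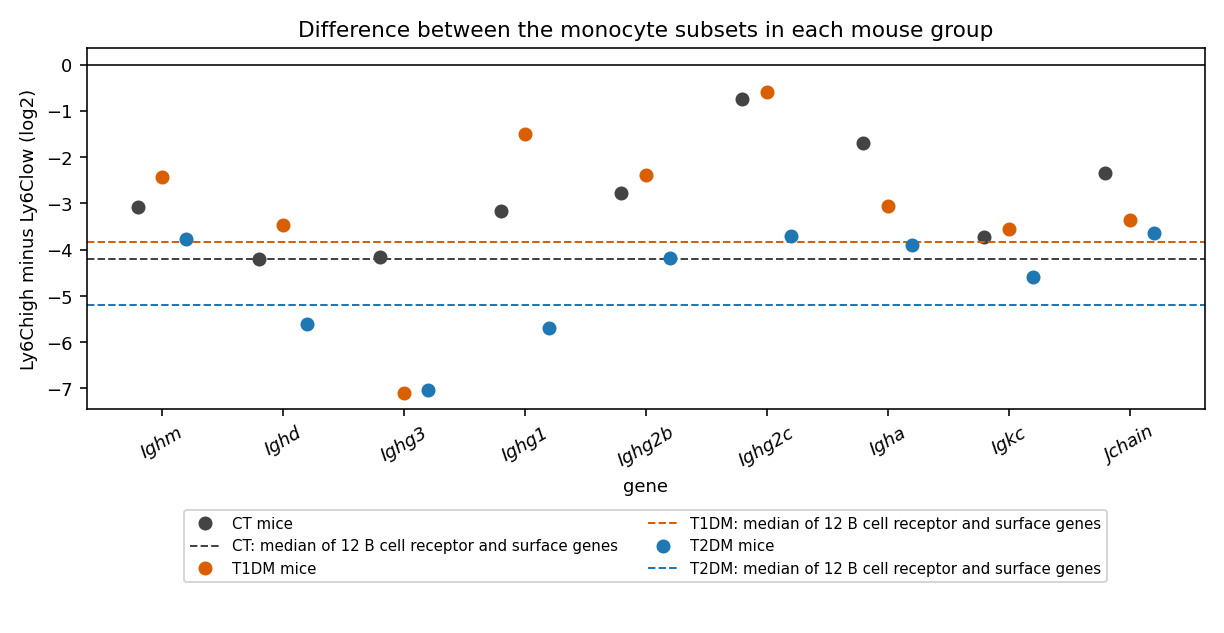
Ly6Chigh minus Ly6Clow value (vertical axis, log2) of each gene (horizontal axis) in each mouse group, with a dashed line at the median of 12 B cell receptor and surface genes in the same mouse group. Every point lies below 0, and the T2DM points lie lowest for all genes but Ighg3.

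Against CT mice, T1DM Ly6Clow MCs had higher levels of the switched isotypes and of Jchain, and not of Ighm. Each of the following differences compares 1 T1DM library with the mean of 2 CT libraries, and has no test. Ighg2c was 2.20 higher, Igha 2.06, Ighg1 2.01, Ighg2b 1.99 and Ighg3 1.44, or between 2.72-fold and 4.61-fold on the linear scale. Jchain was 1.61 higher. Igkc was 0.68 and Ighd 0.39 higher, and Ighm differed by -0.21. Above 1 were thus 6 of the 9 genes, namely the 5 switched isotypes and Jchain, against 4.03% of all genes. T1DM Ly6Clow MCs were among the samples by which the genes were chosen, so this is a description. The median of the 12 B cell receptor and surface genes in the same comparison was 0.14, and that of all genes was 0.003. It was 0.79 for platelet, 0.62 for NK cell and -2.14 for neutrophil markers, whose part in the result was not tested.

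T1DM Ly6Chigh MCs were also above CT Ly6Chigh MCs, with another order of genes. Ighg1 was 3.68 higher, but the CT libraries of that gene differ by 1.73. Ighg2b was 2.39 and Ighg2c 2.36 higher, and Ighd 1.12. Igkc was 0.86, Igha 0.70, Jchain 0.60 and Ighm 0.44 higher. Ighg3 differed by -1.49, with a low T1DM value (-1.27) whose distance from CT is poorly measured. Thus 4 of the 9 genes were above 1, against 5.11% of all genes, and Igha and Jchain, which stood apart in Ly6Clow MCs, were not among them. The B cell receptor and surface genes had a median of 0.50 here. Neutrophil markers had one of 2.15, platelet markers 0.67, NK cell markers 0.49, nonclassical MC markers -0.53 and T cell markers -0.96, and their part in the result was not tested.

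In T2DM Ly6Clow MCs 8 of the 9 genes were less than 1 from CT. Ighg3 was the only one above 1, at 1.42, and 5.09% of all genes were above 1. Ighd was 0.58, Igha 0.56, Ighg1 0.37 and Ighm 0.20 higher. Igkc was 0.10 and Jchain 0.08 higher, and Ighg2b (-0.37) and Ighg2c (-0.73) were below both CT libraries. The median difference from CT was 0.30 for B cell receptor and surface genes and 0.78 for classical MC markers. It was 2.22 for neutrophil and -2.43 for NK cell markers. Whether these cells had a part in the result was not tested.

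In T2DM Ly6Chigh MCs all 9 genes were below both CT libraries, as were 35.5% of all genes. The difference was -3.68 for Ighg2c, -2.14 for Ighg1, -1.78 for Ighg2b, -1.64 for Igha and -1.47 for Ighg3. It was -1.22 for Jchain, -0.82 for Ighd, -0.75 for Igkc and -0.50 for Ighm. The T2DM values of Ighg1 (-2.64), Ighg2c (-1.51), Ighg3 (-1.24) and Ighg2b (-0.07) were low. Such values are not on one scale across the sequencers, so the size of their differences is poorly measured. The 6 genes below -1 were the 5 switched isotypes and Jchain, against 7.89% of all genes. For these genes the diabetic mean differed from the CT mean by between -0.02 (Ighg3) and 0.98 (Ighg1), and by 0.04 for Ighg2c. Lower values here are therefore not a separate observation from the higher values in T1DM. Other lists differed in the same library too. The median difference from CT was -0.64 for B cell receptor and surface genes, -0.71 for B lineage transcription factors, -0.98 for platelet, -1.07 for nonclassical MC and -1.75 for NK cell markers. It was 1.17 for classical MC and 3.04 for neutrophil markers. Their part in the values of the members was not tested.

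**Figure D3:**
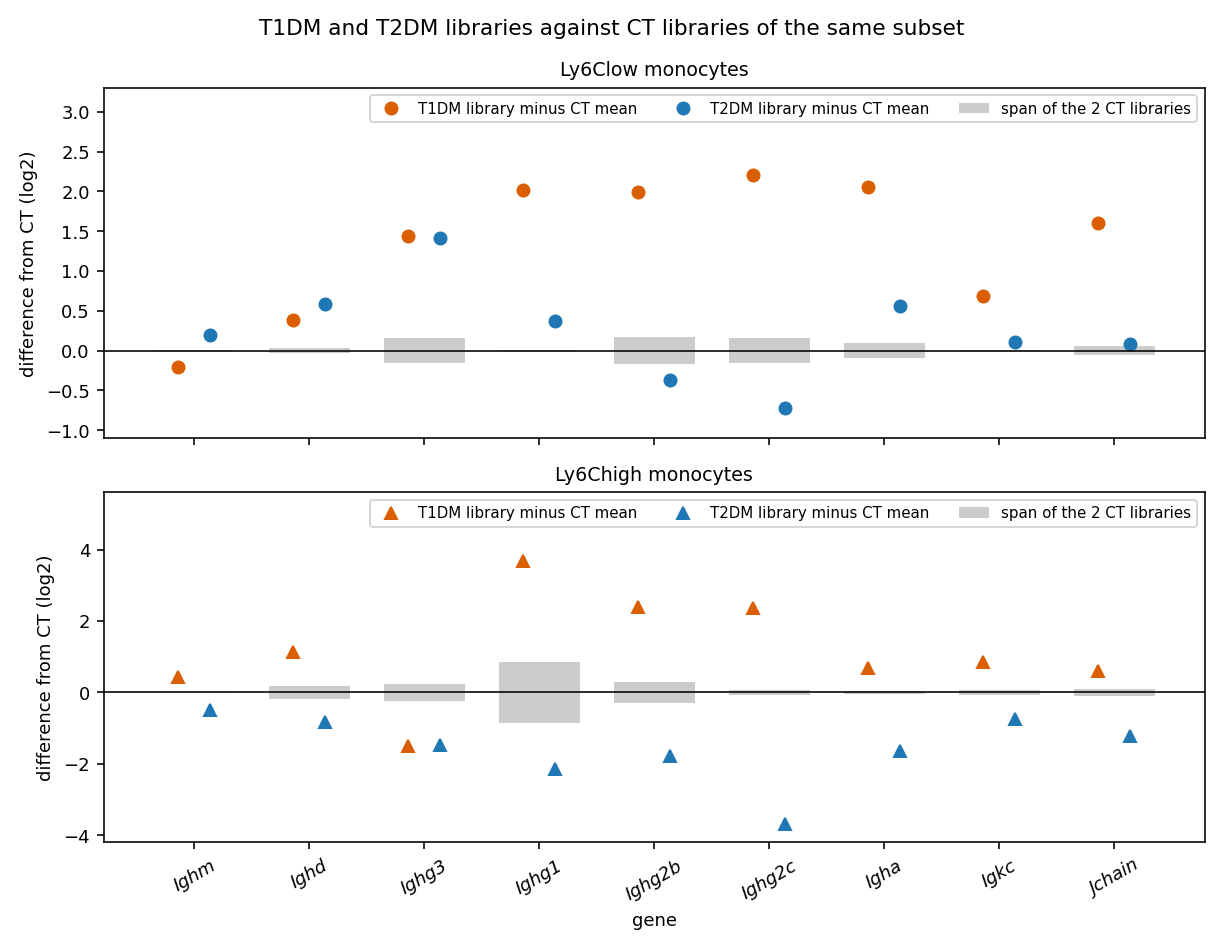
Difference of the T1DM and T2DM libraries from the mean of the CT libraries of the same subset (vertical axis, log2) for each gene (horizontal axis), with grey bars for the span of the 2 CT libraries. In Ly6Clow MCs the T1DM points of the switched isotypes and Jchain lie between 1.44 and 2.20, and in Ly6Chigh MCs every T2DM point lies below the bar.

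When T1DM and T2DM were tested together against CT, 0 genes were called in Ly6Chigh MCs (0.0%) and 0 in Ly6Clow MCs (0.0%), and so none of the 9. At an unadjusted p-value under 0.05, 739 genes (4.48%) passed in Ly6Chigh and 489 (2.97%) in Ly6Clow MCs. The difference of the mean of both models from CT was -1.48 for Ighg3 in Ly6Chigh and 1.43 in Ly6Clow MCs. For Igha it was -0.47 and 1.31, and in Ly6Chigh MCs the models lay on opposite sides of CT.

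The T1DM and T2DM libraries were run on the same sequencer, and each model has 1 library per subset. In Ly6Clow MCs, T1DM exceeded T2DM by 2.93 for Ighg2c, 2.35 for Ighg2b, 1.64 for Ighg1, 1.53 for Jchain and 1.50 for Igha. These 5 genes were above 1, against 7.97% of all genes. The differences were 0.58 for Igkc, 0.02 for Ighg3, -0.19 for Ighd and -0.41 for Ighm. In Ly6Chigh MCs, T1DM exceeded T2DM by 6.03 for Ighg2c, 5.82 for Ighg1 and 4.17 for Ighg2b. Igha had 2.34, Ighd 1.94, Jchain 1.82, Igkc 1.61 and Ighm 0.94, and Ighg3 -0.03, so that 7 of the 9 genes were above 1, against 10.8% of all genes. For Ighg2c, Ighg1 and Ighg2b the T2DM Ly6Chigh values were low (-1.51, -2.64 and -0.07). The size of their differences is therefore poorly measured.

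Ighg3 was the gene that the models shared. The other switched isotypes stood higher in T1DM than in T2DM in both subsets. The B cell receptor and surface genes had a median T1DM minus T2DM difference of -0.16 in Ly6Clow and 1.15 in Ly6Chigh MCs. Single genes of the list went both ways in Ly6Clow MCs, from -1.13 for Cd22 to 1.22 for Cd72. For NK cell markers the median T1DM minus T2DM difference was 2.99 in Ly6Clow and 2.33 in Ly6Chigh MCs. It was 1.10 and 1.58 for platelet, -4.00 and -1.97 for neutrophil and -0.82 and -0.998 for classical MC markers. The part of these cells in the result was not tested.

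The level of each gene was also taken relative to Ighm in the same library. The value of Igha minus that of Ighm was -3.14 and -2.97 in CT Ly6Clow MCs, -2.69 in T2DM and -0.79 in T1DM. On this scale T1DM Ly6Clow MCs exceeded CT by 2.27 for Igha, 2.22 for Ighg1, 2.20 for Ighg2b, 2.41 for Ighg2c and 1.65 for Ighg3. Jchain exceeded CT by 1.82, Igkc by 0.89 and Ighd by 0.60. T2DM Ly6Clow MCs differed by 1.22 for Ighg3 and by between -0.92 (Ighg2c) and 0.38 (Ighd) for the others.

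In CT mice Igha lay closer to Ighm in Ly6Chigh than in Ly6Clow MCs. In T1DM mice it lay closer in Ly6Clow MCs (-0.79). In T2DM mice the Ly6Clow (-2.69) and Ly6Chigh (-2.83) values lay closer together than the CT Ly6Clow libraries (-3.14 and -2.97), so no order is read from them. The difference in Ly6Chigh MCs was -1.65 and -1.71 in the CT libraries, -1.42 in T1DM and -2.83 in T2DM. In T1DM Ly6Chigh MCs, relative to Ighm, Ighg1 exceeded CT by 3.24, Ighg2b by 1.95 and Ighg2c by 1.92, Igha by 0.26 and Jchain by 0.16. Ighg3 differed by -1.93.

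Relative to Igkc, which all kappa-bearing cells express whatever their isotype, the T1DM difference in Ly6Clow MCs was 1.52 for Ighg2c, 1.38 for Igha, 1.33 for Ighg1, 1.31 for Ighg2b and 0.76 for Ighg3. Jchain had 0.93 and Ighm -0.89. The switched isotypes stood above CT in T1DM Ly6Clow MCs on either scale. This follows from the differences given above and is not a further result, since Ighm (-0.21) and Igkc (0.68) differed from CT by less than any switched isotype. For Ighg3, T2DM Ly6Clow MCs stood 1.32 above CT relative to Igkc, further than T1DM.

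**Figure D4:**
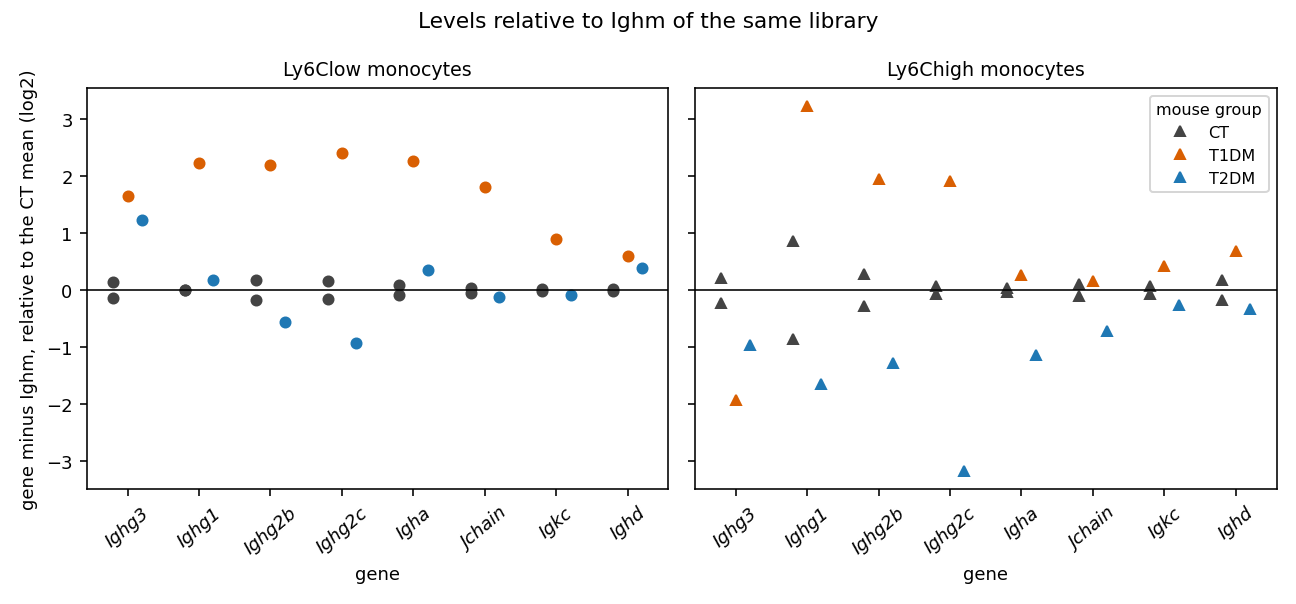
Value of each gene minus that of Ighm in the same library, relative to the mean of the CT libraries of the same subset (vertical axis, log2), for each library in Ly6Clow (left) and Ly6Chigh MCs (right), with colours for the mouse groups. In Ly6Clow MCs the T1DM points of the 5 switched isotypes lie between 1.65 and 2.41.

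Genes from lists of the B lineage and its products were described in the same tests. Of the 6 B lineage transcription factors, which include Pax5 and Ebf1, 6 of 6 had a negative difference in CT MCs, of which 3 were called (1.43% of all genes), and 6 of 6 were called lower in Ly6Chigh MCs in the pooled test (6.76% of all genes), with a median of -3.89. The 3 lambda light chain constant genes Iglc1, Iglc2 and Iglc3 were all lower in the pooled test, with a median of -4.82. In T1DM Ly6Clow MCs these 3 genes had a median difference from CT of 0.26, against 2.01 for the switched isotypes.

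Of 11 plasma cell genes measured, 0 were called in CT MCs by limma, and 6 had an unadjusted p-value under 0.05, as had 37.7% of all genes. In the pooled test 4 were called lower in Ly6Chigh MCs, namely Mzb1, Derl3, Fkbp11 and Eaf2, against 6.76% of all genes. Mzb1, a chaperone-associated protein of B and plasma cells, was at 3.68 and 3.91 in CT, with 4.21 in T1DM and 4.46 in T2DM Ly6Clow MCs. Eaf2, a transcription elongation factor partner, was at 2.44 and 2.45 in CT, with 3.73 in T1DM and 3.42 in T2DM Ly6Clow MCs. For both genes the diabetic libraries lay above both CT libraries. Fkbp11 was at 3.36 and 3.17 in CT, with 3.17 in T1DM and 3.33 in T2DM Ly6Clow MCs, within the span of the CT libraries. Derl3, which takes part in the disposal of misfolded proteins in secretory cells, was at 1.00 and 2.68 in CT, against 3.11 in T1DM and 2.10 in T2DM Ly6Clow MCs. Sdc1, which encodes the plasma cell surface marker CD138, was between 0.44 and 1.74 in the Ly6Clow libraries and between -0.53 and 1.62 in the Ly6Chigh libraries. Xbp1, the transcription factor of the secretory program that MCs also express, was higher in Ly6Chigh MCs in the pooled test, by 1.03 ± 0.08 (SE, limma adjusted p = 2.68e-05). The median of the list in T1DM Ly6Clow MCs was 0.42 above CT, and in T2DM 0.16.

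Of 6 genes of class switching and the germinal centre that were measured, 0 were called in CT MCs, with 3 at an unadjusted p-value under 0.05 (37.7% of all genes). Fas, which MCs also express, was higher in Ly6Chigh MCs in the pooled test. The median of the list was 0.25 above CT in T1DM and -0.02 in T2DM Ly6Clow MCs.

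Receptors for antibody fell on both sides. Of 11, the pooled test called 4 lower (6.76% of all genes) and 2 higher (886 of all 16486 genes) in Ly6Chigh MCs. Lower were Fcmr, the receptor for IgM, at -4.34, Fcamr, the receptor for IgA and IgM, at -3.82, Fcer2a (CD23, a low-affinity IgE receptor of B cells) at -2.30 and Fcgr4, a receptor for IgG2 subclasses on Ly6Clow MCs, at -2.06. Higher were the IgG receptors Fcgr1, by 2.93, and Fcgr3, by 2.08. In T1DM Ly6Clow MCs the list had a median of 0.16 above CT. Fcer1a lay furthest above CT in Ly6Clow MCs, by 3.53 in T1DM and 4.05 in T2DM, with low CT values (-1.64 and -0.09). Pigr lay furthest below, at -1.60 and -1.97. Neither was called when both models were tested together against CT. Fcmr was at 6.52 and 6.47 in CT, against 6.93 in T1DM and 5.61 in T2DM Ly6Clow MCs.

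Markers of other cells did not all follow the subset difference. Of 8 NK cell markers 7 were called lower in CT Ly6Chigh MCs, against 1.43% of all genes. The summed linear value of these markers was 617.2 and 600.4 in CT, with 838.7 in T1DM and 139.6 in T2DM Ly6Clow MCs. Gzma had the highest mean value of them. Of 10 T cell markers 0 were called in CT MCs (4 at an unadjusted p-value under 0.05, against 37.7% of all genes), and their summed value was 65.4 and 71.0 in CT, against 93.5 in T1DM and 53.3 in T2DM Ly6Clow MCs. The platelet list had 0 calls of 6, with 2 at an unadjusted p-value under 0.05, against 37.7% of all genes. Its summed value was 456.5 and 446.9 in CT, with 987.7 in T1DM and 292.1 in T2DM Ly6Clow MCs. The plasmacytoid DC list, whose members Tcf4 and Ly6d are also B cell genes, had 1 call of 6, lower in Ly6Chigh MCs (1.43% of all genes). Of 5 neutrophil markers measured, 0 were called, with 1 at an unadjusted p-value under 0.05 (37.7% of all genes). Of these, S100a8 was at 6.90 in T2DM Ly6Chigh and 3.88 in T2DM Ly6Clow MCs and at most 2.49 elsewhere, and S100a9 was at 5.52 and 4.68 in these libraries and at most 3.55 elsewhere. Retnlg was highest in T1DM Ly6Chigh MCs (3.87) and lowest in T2DM Ly6Chigh MCs (-1.55). Of the MC lists, 7 of 8 classical markers were called higher in Ly6Chigh MCs in the pooled test, against 886 of all 16486 genes. Called lower there were 4 of 9 nonclassical markers, against 6.76% of all genes. All 8 pan-monocyte markers had a positive difference there, and 4 were called higher, as were 886 of all genes.

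The variable gene segments, which the constant genes are joined to in a transcript, were looked at after the values of the constant genes had been seen. The values hold 166 of them, 83 of the heavy chain, 80 kappa and 3 lambda. The median of all segments was -1.37 and -1.45 in CT, against -1.68 in T1DM and -2.43 in T2DM Ly6Chigh MCs, close to the bottom of the values. For 33 segments both CT Ly6Chigh libraries shared one value and both diabetic ones another, with medians of -1.77 and -2.61, so these medians are not compared across the sequencers. In Ly6Clow MCs it was 0.95 and 1.01 in CT, with 1.85 in T1DM and 1.54 in T2DM. In the pooled test 106 of 166 segments were lower in Ly6Chigh MCs, against 6.76% of all genes, and 0 were higher, by limma. At most 9 segments had a value above 1 in a Ly6Chigh library, and 82 to 121 in a Ly6Clow library.

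The segments highest on average in Ly6Clow MCs were Igkv1-117, Igkv1-110, Iglv1, Igkv10-96 and Igkv1-135, chosen by these values. Igkv1-117 was at 5.79 and 5.88 in CT, against 6.48 in T1DM and 6.03 in T2DM Ly6Clow MCs. Igkv1-135 was at 4.13 and 3.49 in CT, with 5.40 in T1DM and 4.28 in T2DM. Iglv1, a lambda segment, was at 4.80 and 5.16 in CT, against 5.08 in T1DM and 5.36 in T2DM, where the T1DM library lay between the CT libraries.

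Against CT Ly6Clow MCs, 83 of the 166 segments were above 1 in T1DM (4.03% of all genes) and 1 was below -1, with a median of 1.00. In T2DM Ly6Clow MCs 54 were above 1 (5.09% of all genes) and 8 below -1, with a median of 0.67. Many segments are near the bottom of the values in CT, where a difference is poorly measured. Among the 64 segments with a value of at least 1 in both CT Ly6Clow libraries, 22 were above 1 in T1DM and 7 in T2DM, with medians of 0.80 and 0.53. T1DM exceeded T2DM by a median of 0.39 among these 64. The medians were thus above CT in both diabetic models, and further above it in T1DM.

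**Figure D5:**
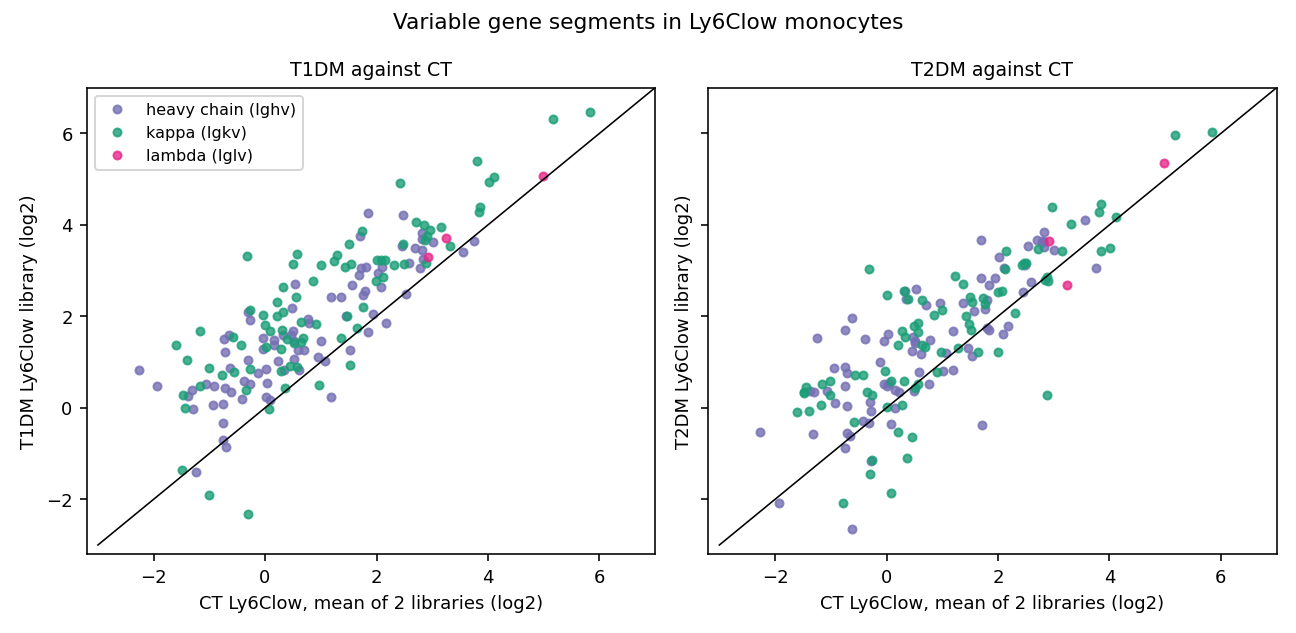
Value of each of 166 variable gene segments in the T1DM (left) and T2DM (right) Ly6Clow library (vertical axis, log2) against the mean of the 2 CT Ly6Clow libraries (horizontal axis, log2), coloured by chain, with the line of equality. Above the line lie 151 points in T1DM and 126 in T2DM, with a median distance of 1.00 in T1DM and 0.67 in T2DM.

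The genes most like Ighm, Igha and Jchain over the 8 libraries were found by the root mean square difference of the values after subtracting each gene's mean, among 12527 genes with a mean of at least 1. For Ighm these were Ralgps2 (0.152), Ebf1 (0.184), Carmil2 (0.218), Tespa1 (0.224) and Dennd5b (0.248). For Igha they were Jchain (0.274), Clnk (0.491), Itgax (0.493), Zbtb10 (0.501) and Ighv14-2 (0.509). For Jchain they were Igha (0.274), Gpr171 (0.323), Clnk (0.366), Zbtb10 (0.373) and B3gnt5 (0.391). By this distance Igha and Jchain were each other's closest gene, with a Pearson r of 0.986 over 8 libraries that share subset, sequencer and normalization. By Pearson correlation in place of distance, 1 of the 5 genes stayed for Ighm, 1 for Igha and 2 for Jchain, so the names depend on the measure. By correlation Jchain was still the closest gene to Igha, but Igha had rank 5 for Jchain, behind Phip (r of 0.989).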

How the data were processed

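Reads of sorted MC libraries were processed by the authors with Kallisto (version 0.45) and tximport (version 1.12.3) in R (version 3.6.1), with mm10 named in the submitters' processing notes. The authors deposited normalized log2 expression values of 16486 genes. The study's methods name gene counts and TPM values as the output of tximport. Which of them the deposited values come from, and the scaling between libraries, is not given in the sources used here. Over 66 ribosomal protein genes the slope of the log2 value on log2 transcript length was 0.141 ± 0.152 (SE).

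Libraries were assigned to groups by their labels. Tests used limma (version 3.58.1) in R 4.3.3, lmFit and eBayes with a trend, on the deposited values without a pseudocount or filter, with Benjamini-Hochberg adjustment over all genes. Calls needed an adjusted p-value below 0.01 and a log2FC beyond 1 in either direction. Comparisons with 1 library on a side are differences without a test. The fits were tested on simulated data. Tables were made in Python 3.11.15 with pandas 2.3.3 and numpy 2.4.6, and figures with matplotlib 3.10.9. Sequences and positions are from GENCODE M21.

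The members and the gene lists were chosen with earlier results of these data known, and the named genes are the members, the genes of the lists and the 5 genes most like Ighm, Igha and Jchain. The variable segments and the comparison of T1DM with T2DM were added after the data were seen. Alternatives were a filter on low values (mean log2 of at least 1), adding 1 before log2, quantile normalization, eBayes with no trend, a limit of 0.05 on the adjusted p-value, a replicate block, and leaving out CT libraries or a diabetic model. Single values of some genes of the lists are not reported here.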

Additional observations from a re-analysis of the deposited data

Results flagged for a closer look

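Several genes moved against CT in opposite directions in the subsets, with the diabetic library outside both CT libraries each time. For most genes the mean of the 4 diabetic libraries is nearly that of the 4 CT libraries. A gene above CT in some diabetic libraries therefore tends to lie below CT in others, and opposite signs are not separate observations. This holds most closely for Ighg3 and Ighm, where diabetic minus CT was -0.02, and for Ighg2c, where it was 0.04. Ighg2c lay above CT in T1DM and below CT in T2DM, in both subsets. The means lay further apart for Igkc (0.22), Jchain (0.27), Ighd (0.32), Igha (0.42), Ighg2b (0.56) and Ighg1 (0.98), against an SD over genes of 0.272. The difference between the subsets was not tested for a single model, which has 1 library per subset. With T1DM and T2DM together, 0 genes were called by limma for a different effect in the subsets and 1084 (6.58%) had an unadjusted p-value under 0.05.

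Ighg3 moved against CT in opposite directions in the subsets in both models. It was at -1.49 against CT in Ly6Chigh and 1.44 in Ly6Clow MCs in T1DM, and at -1.47 and 1.42 in T2DM. Each model has 1 library per subset here, and the Ly6Chigh values of Ighg3 lie near the bottom of the values.

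Ighm did so with opposite signs in the models, at 0.44 in Ly6Chigh and -0.21 in Ly6Clow MCs in T1DM, and at -0.50 and 0.20 in T2DM.

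In T2DM, 5 more genes were below CT in Ly6Chigh and above CT in Ly6Clow MCs, which makes 7 of the 9 genes, against 13.3% of all genes. In T1DM 14.1% of all genes had this pattern and 15.1% the opposite one, each shown by 1 of the 9 genes. The differences were -0.82 and 0.58 for Ighd, -1.64 and 0.56 for Igha, -2.14 and 0.37 for Ighg1, -0.75 and 0.10 for Igkc, and -1.22 and 0.08 for Jchain. In the same libraries the B cell receptor and surface genes had medians of -0.64 and 0.30.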

How the results depend on the processing

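In CT Ly6Chigh against CT Ly6Clow MCs, 581 genes and 6 of the 9 members were called. With the low-value filter 1089 genes were called, and at an adjusted p-value under 0.05 1936. Without the trend and with the replicate block, 0 genes and 0 members were called, and leaving out each CT library gave 0 to 0 genes and 0 to 0 members. The numbers of the CT libraries did not pair the samples, since the correlation over genes of the replicate differences of the subsets was 0.0089. Adding 1 before log2 gave 0 members below -1 in T1DM Ly6Chigh MCs against CT, in place of Ighg3. It moved the median of the switched isotypes to -1.13 from -1.78 in T2DM Ly6Chigh MCs against CT, to -3.23 from -4.19 between the T2DM subsets, and to 3.12 from 4.17 for T1DM minus T2DM in Ly6Chigh MCs. With quantile normalization the T1DM difference of the switched isotypes in Ly6Clow MCs was 2.63 relative to Ighm, from 2.22, and 1.64 relative to Igkc, from 1.33. No member that was called changed direction. Of the differences of both models together from CT, none of them called, that of Ighg2c in Ly6Chigh MCs went from -0.66 to 0.05 on adding 1 before log2. Without CT Ly6Chigh replicate 2, those of Ighg1 (0.77), Ighd (0.15) and Igkc (0.05) became -0.10, -0.04 and -0.03, and without CT Ly6Clow replicate 2 that of Ighm in Ly6Clow MCs went from -0.006 to 0.005. Leaving out a diabetic model changed the sign of 8 members in Ly6Chigh and 3 in Ly6Clow MCs. The depth behind a value is unknown, and the low values of the IgG genes in Ly6Chigh MCs are poorly measured.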
